A study of Homo sapiens with 3 samples.

Results

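Clustered p63 sites are places where several p63 binding peaks lie close together on 1 chromosome. They were chosen from the p63 peak list of a ChIP-seq experiment by chaining neighbouring peaks whose gap, from the end of one to the start of the next, was at most 12500 bp, and keeping chains of 3 or more peaks. On chromosomes 1 to 22 and X this gave 575 stretches with 2016 peaks, out of 21520 p63 peaks in all. The positions of the p63 peaks therefore chose the members. Their number per stretch, their gaps and their span are given below as a description. The strength of the peaks and the positions of ZNF148 peaks were not used in the choice.

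The cells were FaDu, an established line from a squamous cell carcinoma of the pharynx, grown without treatment. In ChIP-seq an antibody pulls down a protein with its DNA, and sequencing shows where that DNA comes from. The labels give 3 samples, namely a ΔNp63α ChIP, a ZNF148 ChIP and input DNA without antibody. Per the extraction protocol the DNA came from 3 independent ChIPs. FaDu is 1 tumour line, each antibody has 1 peak list and read depth is not known from the lists, so replicate error cannot be given and no p-value is printed.

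p63 is a transcription factor of the p53 family. Its N-terminally truncated form ΔNp63α is the main form in the basal cells of stratified epithelia and in squamous carcinomas. It binds DNA as a tetramer and is known for acting at enhancers of epithelial genes, where several sites can lie side by side. ZNF148, which carries zinc fingers, prefers GC-rich sequence, often at promoters. A distance of 12500 bp is the one commonly used to join neighbouring enhancers into larger domains. No hg19 sequence or annotation was used here, so the stretches are given by position, without gene names and without sequence.

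Most stretches were small. Of the 575, 412 had 3 peaks, 97 had 4, 38 had 5 and 14 had 6. A further 6 had 7 peaks, 4 had 8, 2 had 9, 1 had 11 and 1 had 15. The median span was 13.1 kb (quartiles 8.25 and 17.4 kb), and together the stretches covered 7.83 Mb. The 1441 gaps inside them had a median of 4444 bp, and 16.1% of the gaps were under 1000 bp. Peaks within a stretch were thus mostly kilobases apart. The choice had a sharp edge. The stretch on chromosome 5 at 14934656 to 14959982 was kept with a widest gap of 12496 bp, while 3 peaks on chromosome 14 at 72121602 to 72143018 were not, with a gap of 12525 bp. Their median folds were 10.5 and 16.7, and neither had a peak overlapping ZNF148.

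Clustered p63 peaks were about as strong as the rest. The deposited fold enrichment, the authors' own ratio over local background at a peak's summit, had a median of 12.9 in the 2016 clustered peaks (quartiles 8.06 and 24.4), against 13.3 in the 19504 other p63 peaks (8.40 and 24.5). A fold of 40 or more was reached by 9.08% of clustered peaks (95% Wilson interval 7.90 to 10.4%) and by 9.65% of the others (9.25 to 10.1%), with 9.6% over the whole list. Weak peaks differed more. A fold under 5 was found in 4.81% of clustered peaks (3.96 to 5.83%) and in 1.79% of the others (1.61 to 1.99%), against 2.07% of all p63 peaks. Of the 97 clustered peaks under that fold, 35 lay in 5 stretches whose median fold was itself under 5. All 95% intervals given here and below hold counting error alone and take each peak as independent, although peaks of 1 stretch share a region. They may therefore be too narrow, and whether they overlap is a description.

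Within a stretch the peaks were unequal. The strongest peak had 3.52 times the fold of the weakest at the median over stretches (quartiles 2.17 and 5.42). It was at least 3 times stronger in 342 stretches, or 59.5%, and at least 10 times stronger in 24. The 575 strongest peaks had a median fold of 28.2, against 9.89 for the other 1441 peaks, an order that follows from choosing the strongest. In only 14 stretches did every peak reach a fold of 20. In 28 none reached 10. The folds of neighbouring peaks hardly followed each other, with a Spearman's rho of 0.077 over the 1441 neighbouring pairs and of 0.017 over the 1410 pairs left without the 5 weakest stretches. These pairs share 1 library and many share a peak, so the rho is a description. The strongest peak had no fixed place. In stretches of 3 it was the middle one in 128 of 412, or 31.1% (26.8 to 35.7%).

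**Figure D1:**
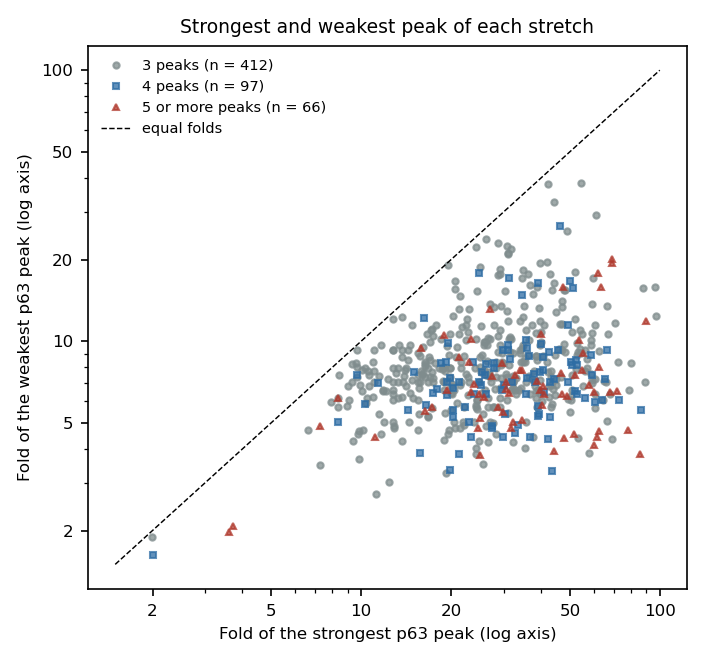
Each point is 1 of the 575 stretches, with the fold enrichment of its strongest p63 peak on the x axis and of its weakest on the y axis, both on log axes; the dashed line marks equal folds and symbols give the number of peaks. Most points lie well below the line, at a median ratio of 3.52, and 4 stretches stand apart at the lower left with a strongest fold of 3.73 or less.

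Strong members often stood among weak ones. Of the 10 most significant p63 peaks of the whole list 3 were in stretches, of the first 100 there were 22, or 22% (15.0 to 31.1%), and of the first 1000 there were 119, or 11.9% (10.0 to 14.1%). Over all p63 peaks the share was 9.37%. The highest, on chromosome 9 at 139001474 to 139001871, had a fold of 86.3 in a stretch of 4 whose other folds were 26.7, 56.4 and 5.55. A ZNF148 peak with a fold of 102.5 overlapped it, with its summit 17 bp away. The next, on the same chromosome at 139518302 to 139518886, had a fold of 72.9 beside peaks of 33.1, 16.4 and 6.05, and its ZNF148 summit was 42 bp away. The largest fold of any member, 97.0, belonged to the peak on chromosome 17 at 4757646 to 4758023, the first of 3, followed by folds of 12.4 and 50.5.

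The other 7 of the 10 most significant members came from stretches of 3 to 6 peaks. The last peak of 3 was the strong one on chromosome 11 (534581 to 534973, fold 96.2), on chromosome 12 (69202547 to 69202911, fold 88.1), on chromosome 17 (78083397 to 78083764, fold 65.0) and on chromosome 22 (31649978 to 31650326, fold 89.2). The middle peak of 5 was the strong one in 2 stretches on chromosome 3 (52087607 to 52088062, fold 89.9, and 5036600 to 5036978, fold 62.8). On chromosome 14 it was peak 5 of 6 (81796053 to 81796397, fold 60.3). Only the peaks on chromosomes 11 and 14 among these 7 overlapped a ZNF148 peak, with summits 132 and 103 bp apart. Over all 10, then, 5 overlapped ZNF148 and 1 had a coincident summit, meaning 1 within 25 bp. Over all p63 peaks 21.2% overlapped and 13.5% were coincident. Strong peaks had higher shares. In the most significant of 10 equal classes by q value, 35.9% of 234 clustered peaks overlapped and 12.0% were coincident. Among the 1918 other p63 peaks of that class it was 59.5% and 49.8%.

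ZNF148 was often close to clustered p63 peaks without lying on them. A ZNF148 peak that did not overlap lay within 12500 bp of 69.7% of clustered peaks (67.7 to 71.7%), against 32.8% of other p63 peaks (32.1 to 33.4%) and 36.2% over all p63 peaks. The share was 67.0% in stretches of 3, 70.6% in stretches of 4 and 77.3% in larger ones, while it was 28.1% for solitary p63 peaks and 50.3% for pairs. The mean number of such neighbours was 2.12 per clustered peak and 0.612 per other peak. These values were not compared with other p63 peaks of the same regions.

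Coincident ZNF148 summits were less frequent among clustered peaks than over the rest of the genome, while the difference in overlap of any kind was small. Of the 2016 clustered peaks 354 overlapped ZNF148, by 1 bp or more, which is 17.6% (16.0 to 19.3%), against 4206 of 19504 others, or 21.6% (21.0 to 22.1%). Over all p63 peaks it was 21.2%. The interval of this difference took in 0 with gaps of at most 5 kb, at -2.41 percentage points (-5.13 to 0.62), and with at least 4 peaks per stretch, at -1.10 (-3.82 to 1.91). Summits within 25 bp were found for 91 clustered peaks, or 4.51% (3.69 to 5.51%), and for 2815 others, or 14.4% (13.9 to 14.9%), with 13.5% overall. The difference was -9.92 percentage points, with a Newcombe 95% interval of -10.9 to -8.81. Overlap with summits farther apart ran the other way, at 13.0% of clustered peaks (11.6 to 14.6%) and 7.13% of others (6.78 to 7.50%), against 7.69% of all p63 peaks.

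The change began with pairs. Solitary p63 peaks had a coincident ZNF148 summit in 16.5% of cases (15.9 to 17.1%) and pairs in 6.67% (5.95 to 7.47%). It was 4.69% in stretches of 3, 4.90% in stretches of 4 and 3.57% in larger ones, and the intervals of these 3 values overlap. Among overlapping peaks alone, 25.7% of the clustered ones were coincident (21.4 to 30.5%), against 66.9% of the others (65.5 to 68.3%). The median distance between the summits of an overlapping pair was 72.5 bp in stretches and 14 bp elsewhere. Chains of 2 lay in between, with 43.4% of overlapping peaks coincident (39.6 to 47.3%) and a median distance of 36.5 bp. For solitary p63 peaks the values were 71.1% and 13 bp. Where clustered p63 peaks met ZNF148, the summits were thus usually offset. Only the most significant summit of each peak was used, and further summits of the same peak were not compared.

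**Figure D2:**
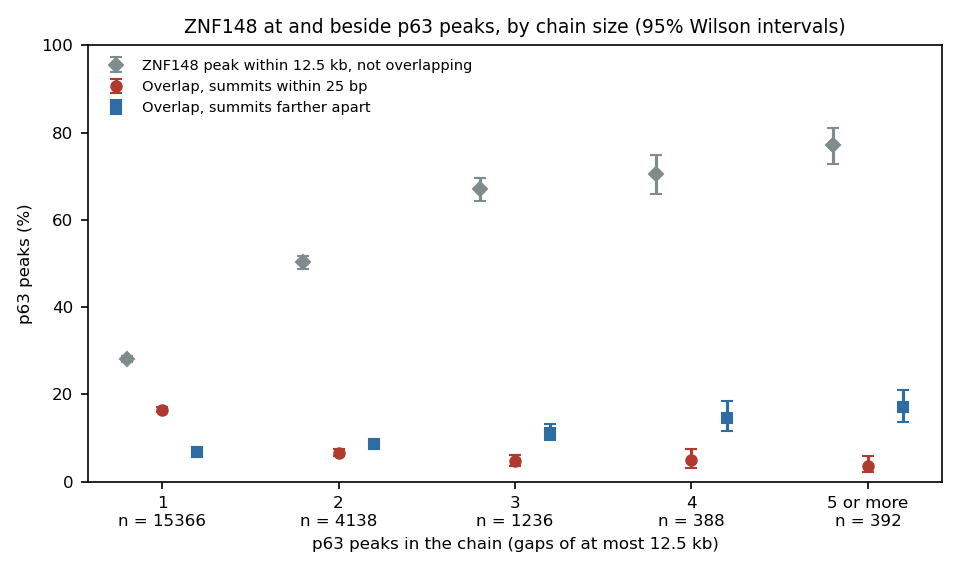
Share of p63 peaks, in percent, with ZNF148 at or beside them, by the number of p63 peaks in the chain; points are shares over the n peaks below each class and bars are 95% Wilson intervals. The share with a non-overlapping ZNF148 peak within 12500 bp went up from 28.1% to 77.3% with chain size, that with offset overlap from 6.71% to 17.1%, and that with coincident summits went down from 16.5% to 3.57%.

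The difference was present among strong peaks, and much of it was common to the region. With p63 peaks ranked by q value and cut into 10 equal classes, the most significant class held 234 clustered peaks, of which 12.0% had a coincident ZNF148 summit (8.41 to 16.8%), against 49.8% of the 1918 others. In class 2 it was 4.35% of 207 against 29.8% of 1945, and in class 3 5.88% of 187 against 20% of 1965. In class 9 both shares were 3.21%. In class 10 the order was reversed, with 3.81% of 236 clustered peaks (2.02 to 7.09%) and 2.04% of 1916 others (1.49 to 2.77%). The class 10 intervals overlapped. The comparison was then limited to p63 peaks of the same neighbourhoods, a choice made after the values had been seen. The 452 windows of 1 Mb that hold a clustered peak also held 4505 other p63 peaks.

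Those neighbours resembled the clustered peaks. Of the 4505, 5.95% had a coincident ZNF148 summit (5.30 to 6.68%), a difference of -1.44 percentage points (-2.53 to -0.24) in place of -9.92. In windows with no clustered peak the share was 17.0% of 14999 (16.4 to 17.6%). For any overlap the direction turned, with 17.6% of clustered peaks, 14.5% of other p63 peaks in the same windows (13.5 to 15.5%) and 23.7% in windows with no clustered peak (23.0 to 24.4%). The lower overlap of clustered peaks against the whole list is therefore not particular to them. Offset summits were also common among the neighbours. Of their 652 overlapping peaks 268 were coincident, against 91 of 354 in stretches and 2547 of 3554 in windows with no clustered peak. Among the most significant class, a coincident summit was found for 12.0% of 234 clustered peaks, for 20.4% of 412 others in the same windows (16.8 to 24.5%) and for 57.9% of 1506 elsewhere (55.4 to 60.4%). Against the same windows, the clustered share was lower in classes 1 to 4 and 6, and higher in classes 5 and 7 to 10. In class 10 it was 3.81% against 1.35% (0.62 to 2.92%). The intervals overlapped in each of the classes where it was higher. Windows with a clustered peak had a median of 22.5 ZNF148 and 14 p63 peaks, while the windows of the 14999 other peaks had medians of 8 and 6. The windows were sorted by whether they hold a p63 stretch, so their p63 counts follow in part from that choice.

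The coincident share was also set against the number of ZNF148 peaks nearby. Among p63 peaks with no other ZNF148 peak within 12500 bp, 5.07% of 611 clustered peaks (3.60 to 7.11%) and 18.7% of 13110 others (18.0 to 19.4%) were coincident. With 1 such neighbour it was 3.53% of 481 clustered peaks and 7.17% of 3740 others. With 2 it was 2.99% of 335 and 2.99% of 1338, and with 3 or more it was 5.60% of 589 (4.02 to 7.76%) and 4.26% of 1316 (3.29 to 5.49%). The intervals of clustered and other peaks were thus apart at no or 1 neighbour and overlapped at 2 or more. With rank class and number of neighbours both held fixed, the difference was -4.40 percentage points.

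**Figure D3:**
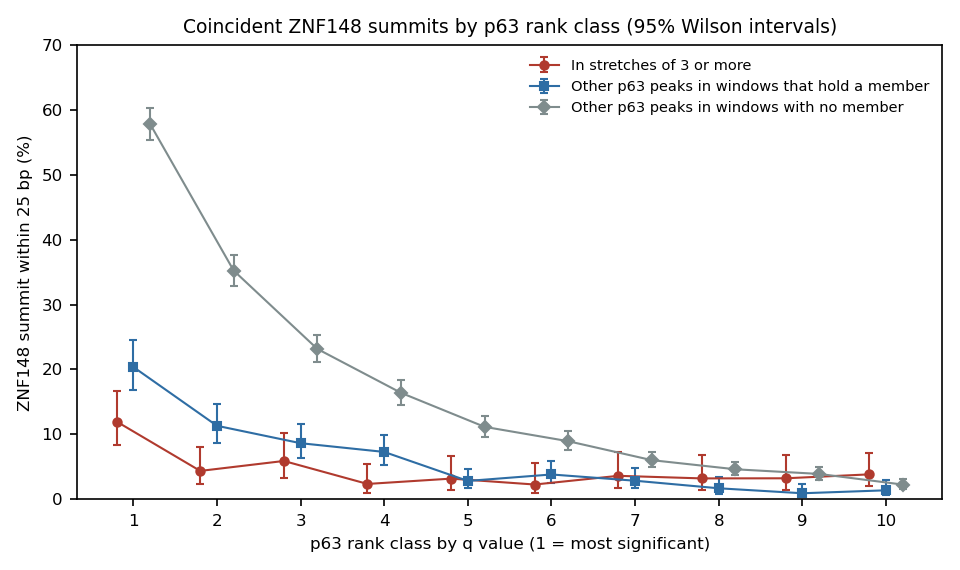
Share of p63 peaks with a ZNF148 summit within 25 bp, in percent, by p63 q-value class (1 is the most significant), for peaks in stretches, other p63 peaks in the 1 Mb windows that hold such a peak, and other p63 peaks in the remaining windows; bars are 95% Wilson intervals. In class 1 the shares were 12.0%, 20.4% and 57.9%, and in class 10 they were 3.81%, 1.35% and 2.24%.

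Stretches differed in how many of their members overlapped ZNF148. In 334 of 575, or 58.1%, no member overlapped a ZNF148 peak, in 157 there was 1, in 60 there were 2 and in 24 there were 3 or more. Every member overlapped in 12 stretches. Coincident summits occurred in 84 stretches, and in 7 of these at more than 1 member. Where exactly 1 member was shared, it was the strongest in 62 of 157 stretches, or 39.5% (32.2 to 47.3%). For scale, 575 of all 2016 members are the strongest of their stretch. Over all stretches, 21.7% of the strongest members overlapped ZNF148 (18.6 to 25.3%), against 15.9% of the other members (14.1 to 17.9%). Overlap also rose with rank among p63 peaks outside stretches, from 7.62% in class 10 to 59.5% in class 1.

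The spans of the stretches contained 940 ZNF148 peaks, with a median of 1 per stretch and up to 18. None lay in 211 stretches, at least 5 lay in 51, and 58 stretches held more ZNF148 than p63 peaks. In 123 stretches ZNF148 was present but on no member. The ZNF148 peaks inside had a median fold of 11.7 (quartiles 7.94 and 21.8), against 9.71 for those outside (7.21 and 16.6). Of the 940, 353 overlapped a member, or 37.6% (34.5 to 40.7%). Over all ZNF148 peaks 12.1% overlapped p63, but a span that begins and ends with a p63 peak favours such overlap. The overlapping ZNF148 peaks inside stretches were weaker than overlapping ones elsewhere, with median folds of 15.0 and 24.5. The 587 others inside had a median fold of 10.5 and lay a median of 1310 bp from the nearest member.

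Stretches of ZNF148 itself met those of p63 in part. A chain of 5 or more ZNF148 peaks, joined by the same 12500 bp, overlapped 123 of the 575 p63 stretches, or 21.4% (18.2 to 24.9%). Such chains held 18.6% of clustered p63 peaks (16.9 to 20.3%) and 3.28% of the others (3.04 to 3.54%). Inside them the coincident share was 8.29% of 374 clustered peaks (5.90 to 11.5%) and 6.89% of 639 others (5.17 to 9.12%), with overlapping intervals. Outside them it was 3.65% of 1642 clustered peaks (2.85 to 4.68%) and 14.7% of 18865 others (14.2 to 15.2%).

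The 8 stretches with the most p63 peaks fell into different kinds. The richest, on chromosome X at 61682230 to 61719896, held 15 peaks with folds of 1.97 to 3.62 and a median of 2.77, and contained no ZNF148 peak. The second, on chromosome X at 58566475 to 58581667, held 11 peaks with folds of 2.08 to 3.73 and a median of 2.68, also without ZNF148. They flank 1 interval of 3.10 Mb without a peak of either protein, and the second has another such interval, of 1.38 Mb, on its other side. These 2 stretches are thus many weak peaks at the edges of intervals without peaks. Whether those intervals hold assembled sequence was not tested.

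A pair of smaller stretches was of the same kind. The 4 peaks on chromosome 17 at 22245518 to 22253767 had folds of 1.63 to 2.01 beside an empty interval of 3.12 Mb, and the 3 peaks on chromosome 8 at 46848330 to 46854366 had a median fold of 1.90 beside one of 3.02 Mb. Together these 4 stretches held 33 peaks. They were the only stretches within 100 kb of any of the 79 intervals of at least 1 Mb without peaks. Their 33 peaks were 1.64% of clustered peaks, and 161 other p63 peaks, or 0.825%, lay as near. None of the members of these 4 stretches overlapped ZNF148. Without them the coincident share was 4.59% and the number of clustered peaks 1983. The fifth of the 5 lowest median folds, 4.29, belonged to 3 peaks on chromosome 17 at 41625455 to 41627188 with folds of 4.29, 4.29 and 13.7, far from any such interval.

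The third richest stretch lay on chromosome 14 at 77373161 to 77425940 and was the longest of all, at 52.8 kb. Its 9 p63 peaks had folds of 24.6, 4.80, 6.38, 12.2, 9.97, 7.40, 5.18, 7.78 and 21.4 in order along the chromosome. The strongest p63 peaks were thus the outermost. Its span held 11 ZNF148 peaks with folds up to 48.1, and the 4 p63 peaks that overlapped one were the weak peaks 2, 3, 6 and 8, facing ZNF148 folds of 34.7, 18.8, 48.1 and 40.5. Only peak 3 had a coincident summit, 14 bp away. At these sites ZNF148 was strong where p63 was weak.

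Chromosome 22 carried a pair of long stretches near each other. The one at 46910553 to 46959480 spanned 48.9 kb with folds of 21.3, 4.29, 4.15, 10.9, 5.18, 3.79, 9.20, 25.1 and 7.80, beside 15 ZNF148 peaks with folds up to 23.6. ZNF148 overlapped p63 peaks 1, 3 and 4, with summits 42, 170 and 42 bp away, and not the strongest, peak 8. The other, at 46813831 to 46862011, spanned 48.2 kb and came next in length. Its 7 p63 peaks had folds of 5.42, 13.9, 25.1, 5.22, 14.1, 20.7 and 12.1. Only the last overlapped 1 of the 8 ZNF148 peaks inside. ZNF148 in both stretches lay mostly in the gaps, which also make up most of each span.

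The stretch on chromosome 8 at 128864417 to 128879592 packed 8 p63 peaks into 15.2 kb. Their folds were 10.3, 4.84, 47.6, 32.5, 4.38, 16.0, 7.58 and 31.5. Peaks 3 and 4, with a gap of 130 bp, formed its strongest point. Of 4 ZNF148 peaks inside, 3 overlapped p63, at p63 peaks 3, 7 and 8, with ZNF148 folds of 28.0, 34.9 and 60.1 and summits 81, 69 and 75 bp away. All 3 overlaps were therefore offset.

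The stretch on chromosome 4 at 1754541 to 1791648 was the most even of these 8 outside chromosome X, with 8 p63 folds of 10.2 to 23.3. It contained 15 ZNF148 peaks with folds of 6.32 to 19.5, and 2 p63 peaks overlapped one, at summit distances of 194 and 74 bp. The stretch on chromosome 9 at 140166865 to 140208686 was uneven, with p63 folds of 8.63, 44.2, 5.29, 5.59, 6.38, 22.9, 29.4 and 3.93. Its 14 ZNF148 peaks reached 77.2. The strongest p63 peak overlapped none, while peak 7 faced a ZNF148 fold of 68.6 with its summit 96 bp away.

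The eighth stretch, on chromosome X at 114971675 to 115005227, had an ordered layout. Its 8 p63 peaks were weak and alike, with folds of 4.86 to 7.28, and its 18 ZNF148 peaks were the most in any p63 stretch. Of these, 12 had folds of 27.9 to 66.4 and 6 had folds of 4.33 to 9.48. The spacing between the summits of the 12 strong ZNF148 peaks had a median of 2987 bp, and 10 of the 11 spacings were within 100 bp of it. The p63 summits followed the same step. Their spacings were 3029, 8867, 5963, 2973, 2950, 6033 and 3518 bp, and all but the last were within 0.1 of 1, 2 or 3 times 2987 bp. The spacing was looked at after the positions had been seen. Whether the sequence there is a tandem repeat with this step was not tested; if it is, the peaks cannot be counted as separate sites. Only 3 of the p63 peaks overlapped ZNF148, all with weak ZNF148 peaks of folds 6.49, 8.13 and 4.33, so the regular strong ZNF148 summits lay beside the p63 summits and not on them.

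**Figure D4:**
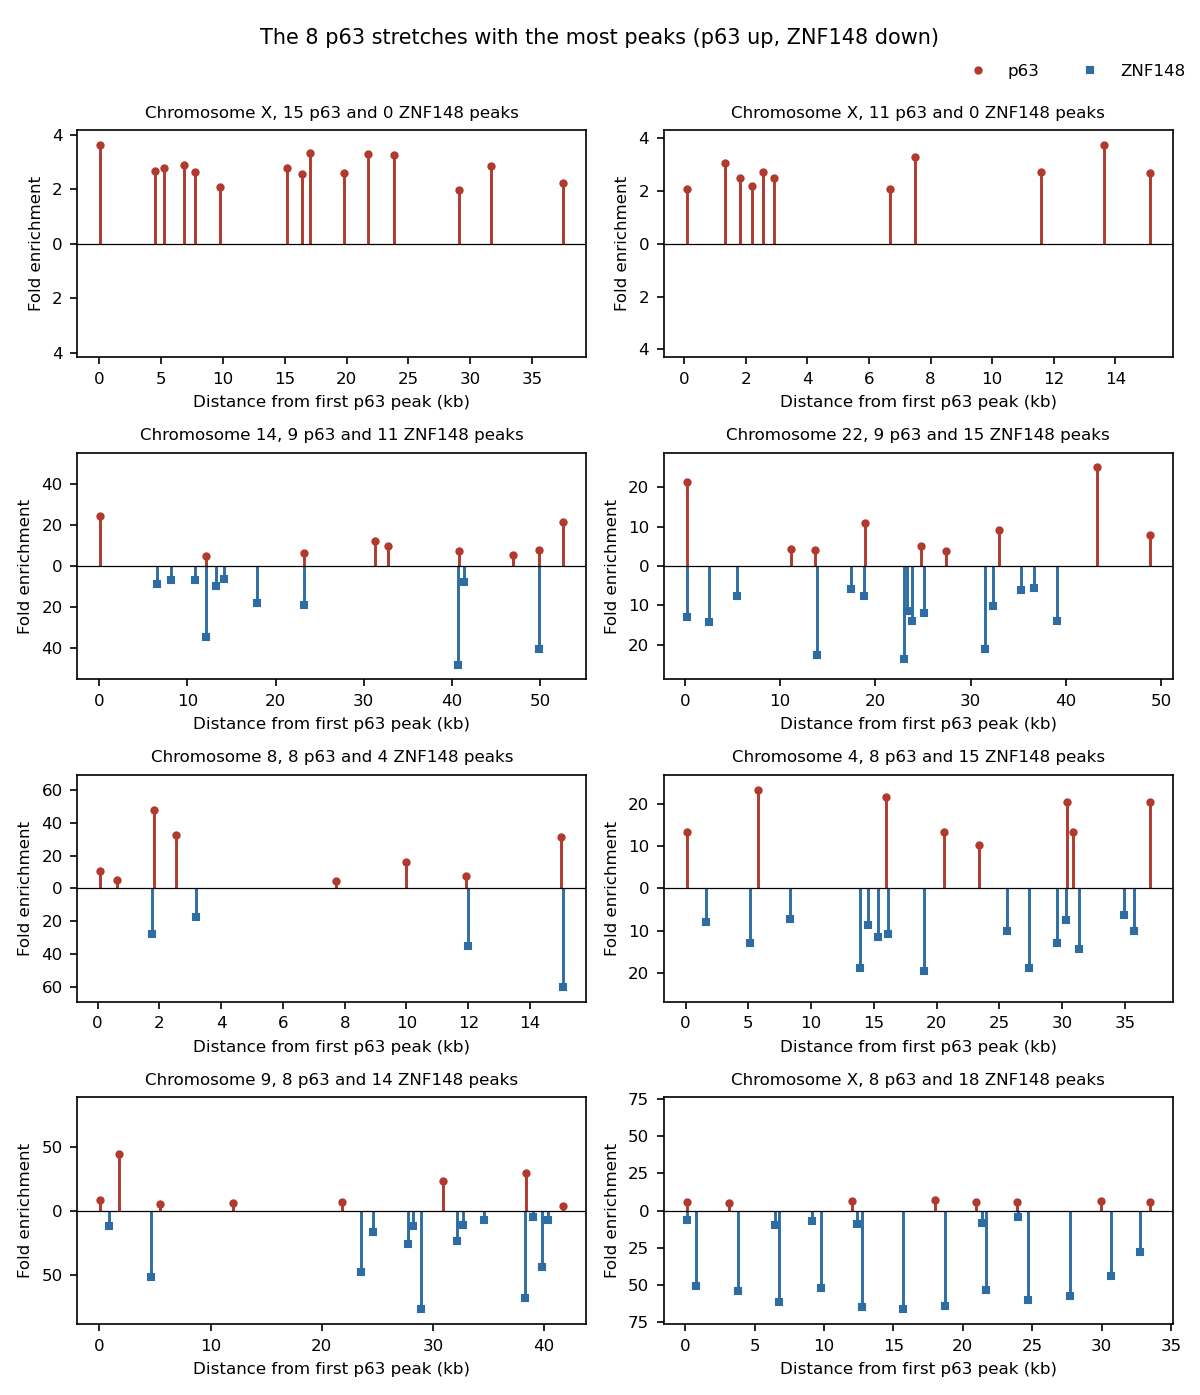
Fold enrichment of p63 peaks (red circles, upward) and ZNF148 peaks (blue squares, downward) against the distance of each summit from the start of the first p63 peak, in kb, in the 8 stretches with the most p63 peaks; the scale differs between panels. The first 2 panels show only p63 peaks with folds under 4, and the last shows 12 strong ZNF148 peaks with a median spacing of 2987 bp.

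The stretches with the highest median fold had 3 peaks each. On chromosome 1 at 94047013 to 94063689 the p63 folds were 9.23, 62.6 and 55.7, and on chromosome 17 at 80453734 to 80460533 they were 54.5, 6.99 and 59.4. Neither had a member overlapping ZNF148, and the one on chromosome 17 had no ZNF148 peak inside. The third by this measure was the stretch on chromosome 17 with the fold of 97.0 given above. On chromosome 9 at 137263519 to 137272272 the folds were 69.2, 4.37 and 49.4, and all 3 peaks overlapped ZNF148 with offset summits, 145, 136 and 72 bp away. On chromosome 2 at 209657571 to 209676941 they were 25.5, 48.8 and 46.0, and peaks 2 and 3 had coincident ZNF148 summits at 18 and 16 bp. Strong clusters were thus found with no, offset and coincident ZNF148 peaks.

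The stretch with the most shared members lay on chromosome 3 at 50184077 to 50205115. All 5 of its p63 peaks, with folds of 15.9, 17.1, 21.8, 63.6 and 53.8, overlapped a ZNF148 peak, and the last had its summit 3 bp away. On chromosome 17 at 39807776 to 39817258 all 4 peaks overlapped, with p63 folds of 40.5, 26.7, 13.0 and 8.73 and summit distances of 59 to 221 bp. On chromosome 10 at 74074782 to 74092048 it was 4 of 5, with the strongest p63 peak (55.4) facing a weak ZNF148 peak (5.46). On chromosome 1 at 201977424 to 201988322 all 3 overlapped. The last is 1 of 10 stretches in which 3 of 3 peaks overlapped, named because it comes first by position; of the 30 peaks in these 10, 7 were coincident. On chromosomes 3, 17 and 10, only the 1 peak on chromosome 3 was.

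The most compact stretches of 5 peaks were uneven too. On chromosome 16 at 637811 to 646283, 5 p63 peaks in 8.47 kb had folds of 23.8, 3.83, 85.6, 45.6 and 17.7, the widest ratio of strongest to weakest of all stretches, at 22.3. None overlapped either of the 2 ZNF148 peaks inside. On chromosome 17 at 75275746 to 75285052 the folds were 10.3, 60.1, 6.50, 26.7 and 7.25, and on chromosome 14 at 105553719 to 105564150 they were 56.0, 6.56, 9.58, 25.5 and 71.9. ZNF148 overlapped 2 and 3 of their peaks, with 1 coincident summit, on chromosome 14 at 20 bp.

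Chromosomes differed in how much of their p63 binding was clustered. On chromosome 22, 101 of 477 p63 peaks were in stretches, or 21.2% (17.7 to 25.1%), followed by chromosomes 16 at 16.8%, 17 at 14.1% and 21 at 13.7%. The lowest were chromosome 13 at 2.67% of 487 (1.57 to 4.51%), 18 at 3.50% and 4 at 3.63%. Chromosome 22 also had the most p63 peaks per Mb, 13.6, against 5.07 on chromosome 13, and denser peaks lengthen chains by themselves.

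The lower coincident share recurred over most chromosomes. Clustered p63 peaks had it lower than the other p63 peaks of their chromosome on 21 of 23, and overlap of any kind was lower on 16. The exceptions for coincidence were chromosome 19, at 5.08% against 4.84%, and chromosome 22, at 2.97% against 2.93%. On several of the 21 the intervals overlapped, as on chromosome 17, at 4.07% (1.75 to 9.16%) against 5.19% (3.82 to 7.01%). The other p63 peaks were here not limited to the windows that hold a clustered peak. The widest gap was on chromosome X, where 3.03% of 66 clustered peaks (0.83 to 10.4%) and 33.0% of other p63 peaks (29.5 to 36.7%) were coincident. Without its 2 weak stretches, 2 of 40 clustered peaks on X were coincident, or 5% (1.38 to 16.5%).

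**Figure D5:**
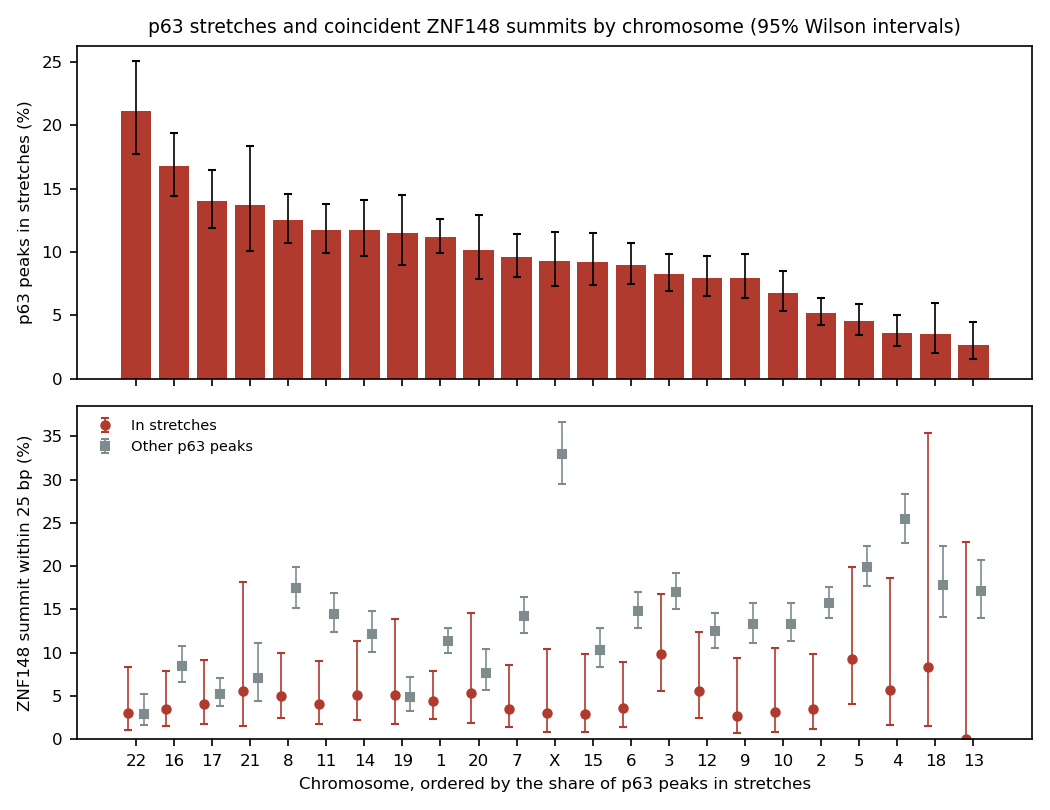
Upper panel, share of each chromosome's p63 peaks that lie in stretches, in percent; lower panel, share with a ZNF148 summit within 25 bp for p63 peaks in stretches and for the other p63 peaks of the chromosome. Bars and error bars are shares with 95% Wilson intervals. The clustered share ran from 21.2% on chromosome 22 to 2.67% on 13, and the lower panel shows the widest difference on X, 3.03% against 33.0%.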

How the data were processed

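Per the submitters' processing notes, MACS2 2.2.6, Bowtie2 2.3.4.3 and SAMtools 1.7 were used with build hg19; settings and the control for peak calling are not given there. The narrowPeak lists were read in the standard column order. The deposited fold enrichment is a ratio over local background, and peaks were ranked within a list by the −log10 q that the authors deposited. The authors' deposited score, the whole part of 10 times −log10 q, was not used. Both lists end at a −log10 q near 3, so weaker sites are missing.

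Rows with the same start and end were joined as 1 peak with its most significant summit, which left 21520 p63 and 37883 ZNF148 peaks. Positions are 1-based hg19. Overlap means at least 1 bp, and coincident means overlapping with summits within 25 bp. Shares have Wilson and differences Newcombe intervals. Stretches named are the 8 with the most p63 peaks, the 5 highest and 5 lowest by median fold, the 5 with the most shared members (ties by larger share, then by position), the 3 longest and the 3 shortest with 5 or more peaks; the 10 most significant members are also named. Members and rules were chosen with earlier results of these data known. Chaining and overlap were tested on simulated data. Motifs and gene annotation, also planned, need an hg19 genome. Calculations used Python 3.11.15, numpy 2.4.6, pandas 2.3.3, scipy 1.17.1 and matplotlib 3.10.9. Alternatives tried were other gap, size, peak and overlap limits, merging of near peaks, and comparisons with rank, chromosome or region held fixed.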

Additional observations from a re-analysis of the deposited data

Results flagged for a closer look

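On contigs outside the analysed chromosomes, 35 p63 peaks lay in stretches of 3 or more by the same rule; the comparisons leave contigs out. They formed 4 stretches, of which 2, with 19 and 10 peaks, were on the unplaced contig gl000220 and had median folds of 1.90 and 2.45. The other 2 had 3 peaks each and median folds of 20.6 and 4.10.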

How the results depend on the processing

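No paired analysis was possible because each antibody has 1 sample. Of 124 recomputed values 79 stayed within the reported interval (counts within 1.5 times), 44 moved and 1 changed direction; the cause was not tested. Clustered peaks and stretches numbered 737 and 221 with gaps of at most 5 kb, 3556 and 966 with 20 kb, and 780 and 163 with at least 4 peaks. At 5 kb, 247 ZNF148 peaks lay inside and the strongest peak had 3.20 times the fold of the weakest. With folds of at least 5, the median folds were 13.7 for clustered and 13.7 for other peaks.

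Any overlap was 20.1% in clustered peaks with at least 4 peaks (difference -1.10 points, -3.82 to 1.91), 18.9% with gaps of at most 5 kb (-2.41, -5.13 to 0.62), 10.2% against 18.8% with 50% of both peaks covered (-8.58), 11.1% against 19.0% with summits within 100 bp (-7.98) and 12.3% against 18.6% with ZNF148 folds of at least 10 (-6.39). Other p63 peaks had 22.3% with rank class held fixed, 20.4% with chromosome fixed, 19.4% with rank class and ZNF148 neighbours fixed (-1.87), 23.2% if solitary and 14.5% in the same 1 Mb windows, where the difference became 3.09 (1.17 to 5.08).

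Coincident summits within 10 bp were found in 1.93% of clustered and 8.61% of other peaks (-6.67), and within 50 bp in 7.34% and 17.0%. Other p63 peaks had 13.8% with gaps of at most 5 kb, 15.2% with 20 kb, 13.9% with at least 4 peaks, 15.1% with rank class fixed, 12.9% with chromosome fixed (-8.38), 8.92% with rank class and ZNF148 neighbours fixed (-4.40), 16.5% if solitary (-12.0) and 5.95% in the same windows (-1.44). The coincident share was lower in clustered peaks under all 15 of its alternatives, each taken over all rank classes. Within the same windows the order differed between rank classes, as given above. Comparisons with chromosome, windows, neighbours or solitary peaks were chosen after seeing the data. Read depth is unknown and limits every share, since peaks below the deposited threshold count as absent.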
